A study of Mus musculus with 14 samples.

Results

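The 41 genes described here encode proteins that copy DNA, drive the cell cycle or carry out mitosis. They were listed by name, and a member was kept when its deposited log2 value reached 3.32, the log2 of 10, in at least 3 of the 14 libraries. This kept 40 of the 41 members, among 11886 kept genes of the 24556 in the table. Aurkb, which encodes the kinase of the chromosomal passenger complex, reached this level in 2 libraries and was not tested. Of the 40 kept members, 16 act in DNA replication, 20 act in mitosis, and 4 (Mki67, Top2a, Hmgb2 and Stmn1) were placed in neither phase. The RNA came from F4/80+ cells that were bound to magnetic beads and taken from tumours grown in the fat pad of Balb/c mice from 4T1 cells, a mouse mammary carcinoma line. In the GSK groups the tumour cells, not the mice, had been exposed in culture to 5 µM GSK269962A, a small molecule, for 5 days before they were injected, and in the DMSO groups they had received the vehicle. There were 3 GSK and 3 DMSO libraries from day 8 after injection, and 4 GSK and 4 DMSO libraries from day 14. The labels give each library a number and do not say whether it was from a mouse of its own, so p-values measure the spread between these samples, which may be technical.

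Cells copy their DNA in S phase. The MCM helicase, built from the Mcm2 to Mcm7 subunits, is loaded onto replication origins by Cdc6 and Cdt1, is activated with Cdc45 and the GINS complex, and the sliding clamp Pcna then holds the polymerases on DNA. Mitosis follows under cyclin B with Cdk1, the spindle checkpoint, kinesins, and the anaphase-promoting complex. Tumour macrophages derive largely from blood monocytes, but macrophages can also divide within the tissue, and both phases are transcribed mainly in dividing cells. In bulk samples such as these, fewer dividing cells and less of an RNA per cell cannot be told apart.

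The promoters of the replication and mitosis members held different letters, counted without use of any expression value, and a few are shown here for that reason. Windows of 300 bases, from 250 before to 50 after each gene's start, were read from RefSeq on GRCm38.p6 and were found for 34 of the 41 members. Mcm4, Gins2, Ccna2, Aurkb, Kif20a, Tpx2 and Stmn1 were not in that table. Both strands were searched for 3 sets of letters: the cell cycle homology region (CHR), taken as TTTGAA or as its variant TTCGAA, the E2F site, taken as TTCCCGC with its variants TTCGCGC, further TTGCCGC, and last TTGGCGC, and the CCAAT box. The last E2F form can overlap its second form on the other strand, and can also overlap a CCAAT box read on that strand. CHR letters were present in 13 of 17 mitosis promoters (76.5%) and in 3 of 14 replication promoters (21.4%), beside 19.4% of 27025 promoters of all genes. E2F letters were present in 9 of 14 replication promoters (64.3%) and in 2 of 17 mitosis promoters (11.8%), beside 9.69% of all promoters. CCAAT was frequent in both, in 10 of 14 replication promoters (71.4%) and 15 of 17 mitosis promoters (88.2%), beside 37.9% of all. All 3 promoters of members in neither phase (Mki67, Top2a and Hmgb2) held CHR letters. A match is only a match of letters, and no binding was measured. In the stretches below, written 5′ to 3′ along the gene's own strand, capitals mark E2F, CHR and CCAAT letters of either strand. Rrm1 is shown at chr7:102441595-102441694 (plus strand), Uhrf1 at chr17:56303237-56303336 (plus), Mcm6 at chr1:128359706-128359825 (minus) and Mcm5 at chr8:75109339-75109508 (plus), as replication promoters with E2F letters. Cdk1 is shown at chr10:69352913-69353012 (minus), Cdc20 at chr4:118437344-118437443 (minus), Ube2c at chr2:164769829-164769928 (plus) and Hmgb2 at chr8:57511743-57511842 (plus), as promoters with CHR letters.
Rrm1: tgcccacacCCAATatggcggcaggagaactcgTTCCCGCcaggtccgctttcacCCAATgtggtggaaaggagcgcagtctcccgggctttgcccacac
Uhrf1: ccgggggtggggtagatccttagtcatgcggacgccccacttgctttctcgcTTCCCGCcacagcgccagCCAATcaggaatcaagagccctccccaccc
Mcm6: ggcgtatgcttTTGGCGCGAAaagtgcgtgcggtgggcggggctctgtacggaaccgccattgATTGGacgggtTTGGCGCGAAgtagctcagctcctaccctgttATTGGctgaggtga
Mcm5: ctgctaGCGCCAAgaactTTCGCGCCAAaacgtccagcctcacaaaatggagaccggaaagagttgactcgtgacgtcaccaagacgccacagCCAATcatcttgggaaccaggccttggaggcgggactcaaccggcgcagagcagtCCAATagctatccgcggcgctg
Cdk1: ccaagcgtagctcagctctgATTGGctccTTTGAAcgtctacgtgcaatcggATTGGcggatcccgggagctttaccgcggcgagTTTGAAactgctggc
Cdc20: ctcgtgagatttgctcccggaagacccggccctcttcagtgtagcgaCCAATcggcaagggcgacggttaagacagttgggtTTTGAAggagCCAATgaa
Ube2c: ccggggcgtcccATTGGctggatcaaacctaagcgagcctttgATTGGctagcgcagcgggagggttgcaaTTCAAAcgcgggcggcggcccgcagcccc
Hmgb2: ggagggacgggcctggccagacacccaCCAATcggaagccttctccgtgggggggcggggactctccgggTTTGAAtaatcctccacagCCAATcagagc
Mcm6 carried 5 E2F matches in its window, pairs that overlap each other among them, and Mcm5 carried 3. In Cdk1, CHR matches began 71 and 15 bases before the start, and its window also held 2 E2F matches that lie outside the stretch shown. Birc5 and Nusap1 held none of the 3 sets of letters, and Tk1 and Tyms held none either.

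The libraries were first set against their label. All 12 pan-macrophage markers were kept, and their mean log2 value lay between 10.7 and 11.6 over the 14 libraries. The mean of the 9 kept markers of 4T1 epithelium was 6.70 ± 0.74 in GSK day 8 and 6.16 ± 0.41 in DMSO day 8 fractions (SD, n = 3 each), and 5.06 ± 0.07 in GSK day 14 and 5.37 ± 0.21 in DMSO day 14 fractions (SD, n = 4 each). Tumour cells divide too, and fits with that mean as a covariate are named below where they end a call. The mean was higher in every day 8 library than in every day 14 library. For changes over time, such a fit therefore cannot well separate the mean from the day. Other cell types were represented unequally. All 8 monocyte and all 8 endothelial markers were kept, and 5 of 8 fibroblast and 5 of 8 dendritic cell markers. Fewer were kept for B and plasma cells (3 of 8), T and NK cells (3 of 12), neutrophils (4 of 11) and erythroid cells (1 of 5), and Dcn, Flt3, Cd79a, Cd3d, Cd8a and Ly6g did not reach the level kept. A pair of ribosomal RNA genes also split the libraries, with Gm42418 higher in GSK day 8 library 1, DMSO day 8 libraries 1 and 3 and DMSO day 14 libraries 2 and 4, and AY036118 higher in the other 9, all of GSK day 14 included. Values are on the authors' log2 scale, whose transformation is not given in the sources used here, so changes of low genes may be understated, and this was not tested. The depth behind each value is unknown, because the table holds no counts.

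Members that passed the test for a difference between pre-treatments are counted here beside the share of all kept genes. On day 14, Mcm4, a helicase subunit, rose and Cdt1, a helicase loading factor, fell in GSK tumours, 2 of 40 members (limma, adjusted p under 0.05 over all 11886 kept genes), while 10.8% of all genes passed in that comparison. On day 8, 0 of the 40 passed (limma), beside 0.194% of all genes. At an unadjusted p under 0.05, 6 of 40 members stood on day 8, beside 16.3% of all genes, and 9 of 40 on day 14, beside 27.3%. When the difference was averaged over the days, Mcm4, Prc1 and Cenpe rose and Birc5, Cdt1 and Rrm1 fell, 6 of 40, beside 14.5% of all genes. The change of this difference between the days passed for 0 of 40 members (limma; 3 at an unadjusted p under 0.05), beside 0.00841% of all genes, and 8.3% of all genes had an unadjusted p under 0.05 there. In time, Mcm4 rose on day 14 against day 8 in GSK tumours, 1 of 40 beside 7.01% of all genes, and Prc1 rose in DMSO tumours, 1 of 40 beside 0.824%. These comparisons share libraries with each other, so their calls are not separate evidence.

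**Figure D1:**
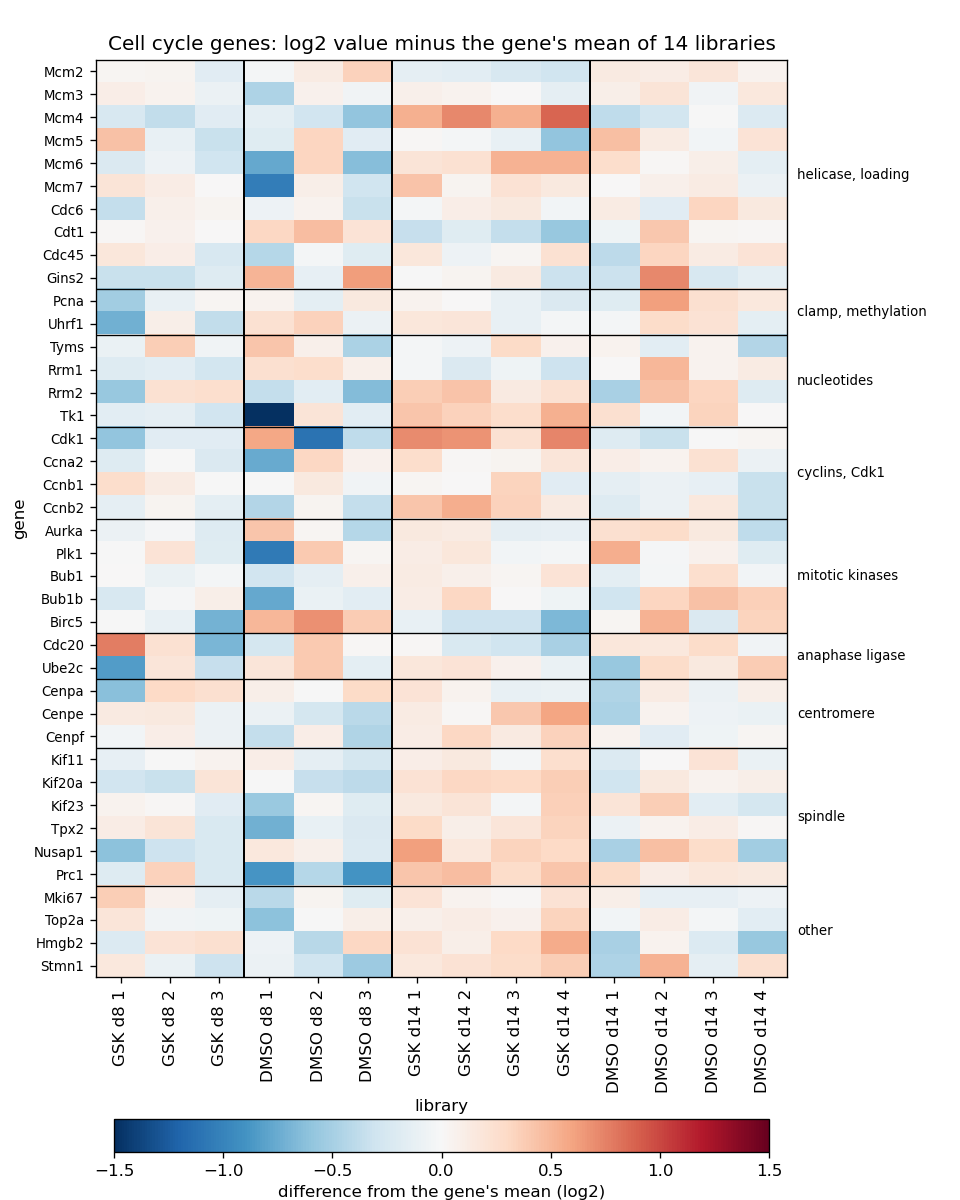
Each row is a kept member, each column a library, and the colour is the log2 value minus that gene's mean of the 14 libraries, with colours ending at 1.5 in either direction. Mcm4 stands high in all 4 GSK day 14 libraries, and DMSO day 8 library 1 holds the lowest value of 14 of the 40 members.

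The day 14 counts moved with single libraries. The members past the threshold were 5 without DMSO day 8 library 1 or 2, which enter through the shared spread, and 4 without DMSO day 14 library 3. They were 1 without GSK day 14 library 1, 3 or 4, or without DMSO day 14 library 2 or 4. The day 8 count was 1 without DMSO day 8 library 2. The count in the mean was 3 without GSK day 8 library 2 or 3 or GSK day 14 library 4. In GSK tumours over time it was 3 without GSK day 8 library 3 or DMSO day 8 library 1 or 2, and 2 without DMSO day 14 library 1 or 2. In DMSO tumours over time it was 2 without DMSO day 8 library 2 and 0 without DMSO day 8 library 1 or 3 or DMSO day 14 library 3.

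The members differed among themselves in how steady they were. Their SD within groups had a median of 0.24 on the log2 scale and ran from 0.11 to 0.43. The widest range over the libraries was that of Tk1, the thymidine salvage kinase, from 6.32 in DMSO day 8 library 1 to 8.41 in GSK day 14 library 4. Cdk1, the kinase that starts mitosis, ran from 5.17 in DMSO day 8 library 2 to 7.0 in GSK day 14 library 4. DMSO day 8 library 1 held the lowest value of 14 members and DMSO day 8 library 3 of 9, and GSK day 14 library 4 held the highest value of 10 members and the lowest of 4.

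Of the 10 helicase and loading members, Mcm4 (ENSMUSG00000022673, chromosome 16 from 15623897 to 15637400, GRCm38, minus strand) was the one that rose on day 14. Its log2 values were 7.03, 7.22, 7.02 and 7.36 in GSK day 14 libraries and 6.11, 6.22, 6.49 and 6.29 in DMSO day 14 libraries. All 4 GSK day 14 libraries lay above every other library of the series. On day 8 it was at 6.26, 6.13 and 6.33 in GSK libraries and at 6.35, 6.21 and 5.91 in DMSO libraries, which overlapped. The day 14 difference was 0.88 (SE 0.14, 1.84-fold higher, adjusted p = 0.00427, limma), and the day 8 difference was 0.08 (SE 0.17, adjusted p = 0.843). The day 14 call held under all 28 alternatives, with changes from 0.80 to 0.96. With AY036118 libraries only it was 0.86 (adjusted p = 0.0204, limma) and with the epithelium covariate 0.83 (adjusted p = 0.0134). In the mean of both days Mcm4 rose by 0.48 (SE 0.11, adjusted p = 0.0106, limma), a call that ended with AY036118 libraries only (0.44, adjusted p = 0.0659). The direct test of whether the difference grew between the days gave 0.80 (SE 0.22, adjusted p = 0.504, limma), which did not pass. Over time Mcm4 rose by 0.92 in GSK tumours, day 14 against day 8 (SE 0.16, adjusted p = 0.00482, limma), where 7 of 9 kept epithelial markers fell. With the mean of the kept epithelial markers as a covariate the change was 0.66 and did not pass. That mean ran from 5.88 to 7.33 in GSK day 8 and from 4.96 to 5.12 in GSK day 14 libraries. These ranges do not overlap, so the fit cannot well separate the mean from the day. In DMSO tumours the day 14 against day 8 change of Mcm4 was 0.12 (SE 0.16, adjusted p = 0.747, limma).

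The other helicase subunits did not pass, and they did not share a direction. Mcm2 stood at 7.84, 7.82, 7.75 and 7.69 in GSK day 14 libraries and at 8.12, 8.10, 8.16 and 8.04 in DMSO day 14 libraries. The GSK libraries lay below all DMSO libraries, and the change of -0.33 (SE 0.12, adjusted p = 0.0799, limma) missed the threshold. Mcm5 stood at 8.54, 8.50, 8.41 and 7.93 in GSK day 14 libraries and at 8.97, 8.64, 8.48 and 8.73 in DMSO day 14 libraries, with overlap (change -0.36, SE 0.19, adjusted p = 0.228, limma). On day 8, Mcm2 was at 8.01, 8.03 and 7.82 in GSK and 7.95, 8.11 and 8.32 in DMSO libraries, and Mcm5 at 8.97, 8.41 and 8.18 in GSK and 8.34, 8.84 and 8.36 in DMSO libraries. Both overlapped. Mcm3, Mcm6 and Mcm7 had day 14 changes of -0.10, 0.31 and 0.18. Mcm7 had a day 8 change of 0.52 (SE 0.21, adjusted p = 0.247, limma), and 33.4% of its 31-base words occur in transcripts of other genes. Such shared words were counted on either strand, so genes that overlap a member at its own locus are included. Mcm6 was higher on day 14 than on day 8 in GSK tumours with no overlap (change 0.56, SE 0.22, adjusted p = 0.120, limma). Of the 6 helicase subunits, 3 had positive and 3 had negative changes on day 14, and Mcm4 was the 1 past the threshold.

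Cdt1 (ENSMUSG00000006585, chromosome 8 from 122568015 to 122573554, GRCm38, plus strand) loads the helicase and is held back by geminin. Its log2 values were 8.79, 8.94, 8.77 and 8.56 in GSK day 14 libraries and 9.06, 9.53, 9.15 and 9.15 in DMSO day 14 libraries. All GSK day 14 libraries lay below all DMSO day 14 libraries, and the same held on day 8, with 9.15, 9.20 and 9.14 in GSK and 9.44, 9.59 and 9.33 in DMSO libraries. Cdt1 fell by 0.46 on day 14 (SE 0.13, 1.37-fold lower, adjusted p = 0.0353, limma) and by 0.37 in the mean of both days (SE 0.10, adjusted p = 0.0214). The day 14 call ended in 10 of 28 alternatives, among them without GSK day 14 library 1 (adjusted p = 0.0731, limma), 3 (0.0705) or 4 (0.139) and without DMSO day 14 library 2 (0.111) or 4 (0.0631). It also ended with AY036118 libraries only (-0.34, adjusted p = 0.125, limma), with the epithelium covariate (-0.46, adjusted p = 0.0734), and with the GC trend of each library removed (-0.36, adjusted p = 0.0979). The call in the mean ended without GSK day 8 library 3 (adjusted p = 0.0566, limma) or GSK day 14 library 4 (0.0506), with a term for the ribosomal RNA split (0.0698) and with AY036118 libraries only (-0.38, adjusted p = 0.0520). The geminin gene Gmnn, which is not a member, rose on day 14 by 0.82 (SE 0.18, adjusted p = 0.0140, limma).

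The remaining loading and activation factors did not pass on either day. The loader Cdc6 and the helicase activator Cdc45 had day 14 changes of -0.06 and 0.02 and day 8 changes of 0.04 and 0.22. Gins2, a GINS subunit, was at 4.52, 4.52 and 4.66 in GSK day 8 and at 5.37, 4.73 and 5.49 in DMSO day 8 libraries. The groups did not overlap, and the change of -0.63 (SE 0.25, adjusted p = 0.236, limma) did not pass. DMSO day 8 libraries 1 and 3 and DMSO day 14 library 2 (5.58), which held the highest values, have Gm42418 higher. GSK day 8 library 1 (4.52) and DMSO day 14 library 4 (4.71) also have Gm42418 higher, and a link was not tested. The value of Gins2 is uncertain, because 67.3% of its exonic bases are overlapped by Gse1 on the opposite strand and the strandedness of counting is not given in the sources used here. On day 14 the change of Gins2 was -0.05.

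Among the clamp, maintenance methylation and nucleotide supply members, Rrm1 fell in the mean of both days and no member passed on either day alone. Rrm1 (ENSMUSG00000030978, chromosome 7 from 102441695 to 102469771, GRCm38, plus strand) is the large subunit of ribonucleotide reductase, which makes deoxynucleotides. It stood at 7.59, 7.62 and 7.52 in GSK day 8 and 8.02, 8.05 and 7.86 in DMSO day 8 libraries. On day 14 it stood at 7.76, 7.57, 7.72 and 7.48 in GSK and 7.79, 8.28, 7.84 and 7.91 in DMSO libraries. The GSK libraries lay below the DMSO libraries without overlap on both days. The mean change was -0.36 (SE 0.10, 1.29-fold lower, adjusted p = 0.0262, limma), with -0.40 on day 8 (adjusted p = 0.212) and -0.32 on day 14 (adjusted p = 0.121). The call in the mean ended in 6 of 27 alternatives, without GSK day 8 library 2 (adjusted p = 0.0530, limma) or 3 (0.0719), without GSK day 14 library 2 (0.0505) or 4 (0.0612), with a term for the ribosomal RNA split (0.10) and with AY036118 libraries only (-0.33, 0.0765).

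Rrm2, the small subunit of the same enzyme, had changes of the other sign that did not pass, 0.36 on day 8 and 0.27 on day 14. Pcna, the sliding clamp, stood at 9.46, 9.42, 9.30 and 9.19 in GSK day 14 and at 9.24, 10.03, 9.65 and 9.58 in DMSO day 14 libraries. On day 8 Pcna was at 8.89, 9.30 and 9.44 in GSK and 9.47, 9.27 and 9.56 in DMSO libraries, and the groups overlapped on both days (changes -0.28 on day 14, adjusted p = 0.281, and -0.22 on day 8, adjusted p = 0.596, limma). Uhrf1, which guides maintenance DNA methylation after replication, had a day 8 change of -0.50 (SE 0.20, adjusted p = 0.247, limma) and a day 14 change of -0.02. The thymidylate synthase Tyms and the thymidine kinase Tk1 had day 14 changes of 0.19 and 0.25. Of the 31-base words of Pcna, Uhrf1, Tyms and Rrm2, 23.3%, 24.2%, 11.4% and 12.8% also occur in transcripts of other genes. The values of these members are uncertain to that extent.

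**Figure D2:**
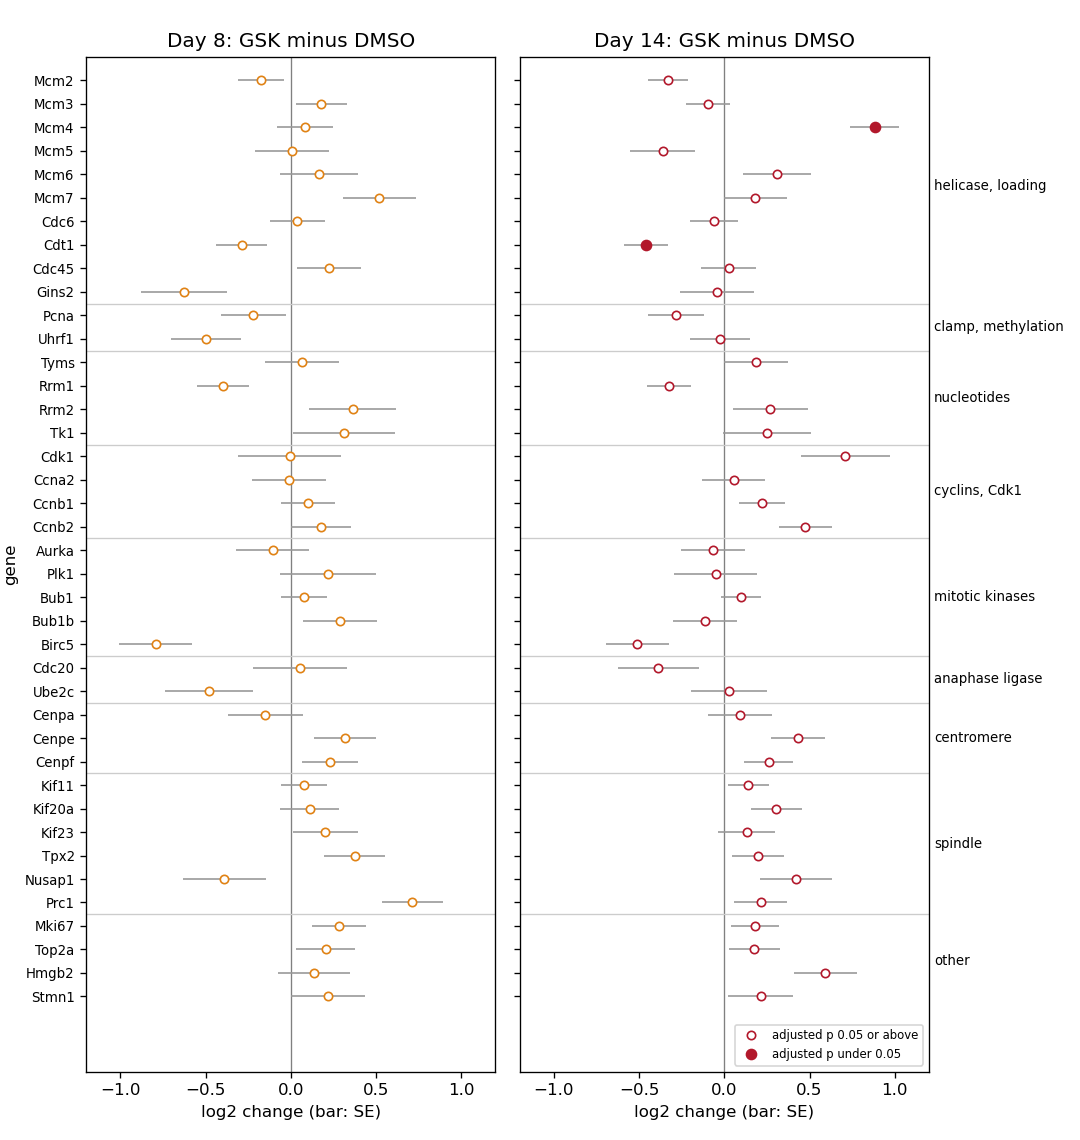
The log2 change of each kept member, GSK minus DMSO, with its SE, on day 8 and on day 14, in order of role. Filled points passed the threshold, which were Mcm4 and Cdt1 on day 14 and 0 members on day 8.

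The cyclin and Cdk1 members were all on the positive side on day 14, Ccna2 except under quantile normalisation, with 0 of 4 past the threshold. Cdk1 stood at 6.99, 6.95, 6.50 and 7.0 in GSK day 14 libraries and 6.09, 5.94, 6.27 and 6.30 in DMSO day 14 libraries. The groups did not overlap, and the change was 0.71 (SE 0.26, adjusted p = 0.0877, limma). On day 8 Cdk1 was at 5.69, 6.11 and 6.11 in GSK and 6.86, 5.17 and 5.90 in DMSO libraries, with DMSO libraries on both sides of the GSK libraries. Ccnb2, the second mitotic B cyclin, had a day 14 change of 0.48 (SE 0.15, adjusted p = 0.0572, limma). Ccnb1 stood at 5.14, 5.11, 5.44 and 4.94 in GSK day 14 and 4.97, 5.02, 4.99 and 4.77 in DMSO day 14 libraries, with overlap (change 0.22, SE 0.14, adjusted p = 0.318, limma). On day 8 Ccnb1 was at 5.38, 5.24 and 5.10 in GSK and 5.10, 5.25 and 5.06 in DMSO libraries, also with overlap. Ccna2, the cyclin of S phase and early mitosis, differed by 0.05. Ccnb1 and Ccna2 share 27.8% and 12.0% of their words with transcripts of other genes. Exosc9 on the opposite strand overlaps 12.5% of the exonic bases of Ccna2.

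Of the mitotic kinase and checkpoint members, Birc5 fell in the mean of both days. Birc5 (ENSMUSG00000017716, chromosome 11 from 117849251 to 117855743, GRCm38, plus strand) encodes survivin, a subunit of the chromosomal passenger complex and an inhibitor of apoptosis. It stood at 9.58, 9.47 and 8.87 in GSK day 8 and 10.08, 10.26 and 9.95 in DMSO day 8 libraries. On day 14 it stood at 9.47, 9.27, 9.26 and 8.91 in GSK and 9.60, 10.09, 9.36 and 9.91 in DMSO libraries. Every GSK library lay below every DMSO library on day 8, and on day 14 GSK library 1 lay above DMSO library 3. The mean change was -0.65 (SE 0.14, 1.57-fold lower, adjusted p = 0.00844, limma), with -0.79 on day 8 (adjusted p = 0.10) and -0.51 on day 14 (adjusted p = 0.0846). The call in the mean held under all 27 alternatives, with changes from -0.72 to -0.54.

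The other members of that role did not pass in any comparison. Plk1, the polo-like kinase, stood at 7.25, 7.30, 7.09 and 7.10 in GSK day 14 and at 7.67, 7.12, 7.20 and 6.95 in DMSO day 14 libraries. On day 8 Plk1 was at 7.12, 7.34 and 6.96 in GSK and 6.07, 7.52 and 7.16 in DMSO libraries, so the DMSO libraries spanned the GSK libraries on both days. The spindle kinase Aurka and the checkpoint genes Bub1 and Bub1b had day 14 changes of -0.07, 0.10 and -0.12. Cdc20 and Ube2c, the activator and the ubiquitin-conjugating enzyme of the anaphase-promoting complex, had day 14 changes of -0.39 (adjusted p = 0.318, limma) and 0.03. On day 8 they had changes of 0.05 and -0.48 (adjusted p = 0.365 for Ube2c). Plk1, Cdc20 and Ube2c share 18.7%, 26.7% and 25.3% of their words with transcripts of other genes. On the opposite strand, Gm44985, Elovl1 and Tnnc2 overlap 7.1%, 2.8% and 22.8% of their exonic bases.

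Spindle and centromere members were mostly on the positive side, and Prc1 and Cenpe rose in the mean of both days. Prc1 (ENSMUSG00000038943, chromosome 7 from 80294450 to 80316259, GRCm38, plus strand) bundles the microtubules of the central spindle. It stood at 6.33, 6.87 and 6.30 in GSK day 8 and 5.64, 6.09 and 5.63 in DMSO day 8 libraries. On day 14 it stood at 6.94, 6.98, 6.80 and 6.94 in GSK and 6.82, 6.63, 6.70 and 6.67 in DMSO libraries. The GSK libraries lay above the DMSO libraries on day 8, and on day 14 GSK library 3 lay just below DMSO library 1. The mean change was 0.46 (SE 0.12, 1.38-fold higher, adjusted p = 0.0178, limma), with 0.71 on day 8 (adjusted p = 0.0786) and 0.21 on day 14 (adjusted p = 0.402). The call in the mean ended without GSK day 8 library 2 (0.37, adjusted p = 0.0575, limma), with a term for the ribosomal RNA split (0.36, adjusted p = 0.0927) and with AY036118 libraries only (0.33, adjusted p = 0.152).

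Prc1 was also the member that rose over time in DMSO tumours, by 0.92 (day 14 against day 8, SE 0.17, adjusted p = 0.0193, limma), with no overlap. In GSK tumours the same change was 0.42 (SE 0.17, adjusted p = 0.133, limma), and the difference between the changes, -0.50 (SE 0.24, adjusted p = 0.600), did not pass. The DMSO call ended in 7 of 28 alternatives, without DMSO day 8 library 1 (adjusted p = 0.0781, limma) or 3 (0.0742), without DMSO day 14 library 3 (0.0510), with the epithelium covariate (0.245), library quality weights (0.0985), a fit of only the groups compared (0.117) or AY036118 libraries only (0.66, 0.352). Prc1 shares 12.5% of its words with transcripts of other genes, and Rccd1 on the opposite strand overlaps 11.1% of its exonic bases. These shares may cover the same bases.

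Cenpe (ENSMUSG00000045328, chromosome 3 from 135212537 to 135273611, GRCm38, plus strand) is the kinesin that moves chromosomes to the spindle equator. It stood at 7.04, 7.06 and 6.83 in GSK day 8 and 6.82, 6.64 and 6.51 in DMSO day 8 libraries. On day 14 it stood at 7.03, 6.93, 7.31 and 7.51 in GSK and 6.44, 6.97, 6.84 and 6.81 in DMSO libraries. The groups were only just apart on day 8 (lowest GSK value 6.8259, highest DMSO value 6.8234). On day 14 they overlapped through GSK library 2. The mean change of 0.37 (SE 0.12, adjusted p = 0.0490, limma) lay close to the threshold and missed it in 20 of 27 alternatives, at adjusted p from 0.0514 to 0.113. These included the fits that each left out 1 library, except when library 1 of DMSO day 8 or library 2 of GSK day 14 was the one omitted, with changes from 0.32 to 0.41, and the replicate block (adjusted p = 0.0688, limma).

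The remaining centromere and spindle members did not pass. Cenpf, a kinetochore protein, lay higher in GSK than in DMSO day 14 libraries without overlap (change 0.26, SE 0.14, adjusted p = 0.253, limma), and Cenpa, the centromeric histone, differed by 0.09. Nusap1, a spindle-associated protein, had a day 8 change of -0.39, with GSK libraries below DMSO libraries, and a day 14 change of 0.42. The difference between these changes, 0.81 (SE 0.32, unadjusted p = 0.0220, adjusted p = 0.547, limma), did not pass. The kinesins Kif20a, Kif23 and Kif11 and the spindle assembly factor Tpx2 had day 14 changes of 0.30, 0.13, 0.14 and 0.20. Kif20a did not overlap between the groups. It shares 26.7% of its words with transcripts of other genes, and Cdc23 on the opposite strand overlaps 29.3% of its exonic bases. Both shares may cover the same bases. Kif11 reached the level kept in 3 libraries, GSK day 14 libraries 2 and 4 and DMSO day 14 library 3. It was kept through day 14 libraries alone, so its positive changes, counted below, may be partly set by the filter.

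**Figure D3:**
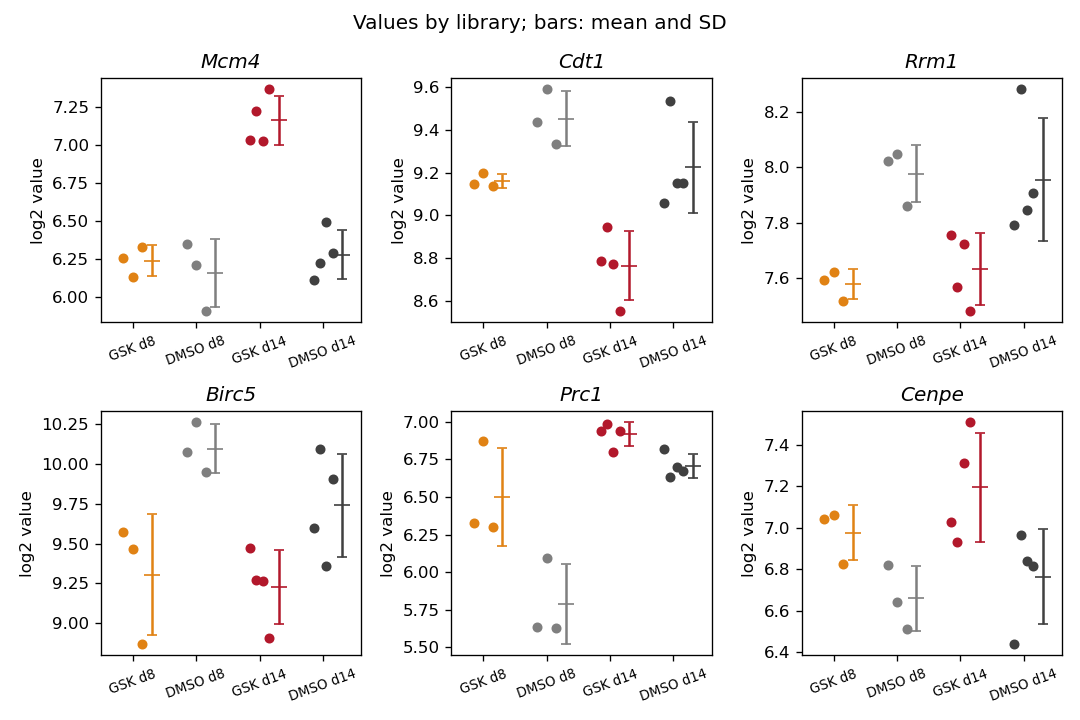
Log2 values of the 6 members that passed in any comparison, by library, with GSK and DMSO side by side on each day and bars for the mean and SD. Mcm4 separates the groups on day 14 and not on day 8, while Cdt1 and Rrm1 separate them on both days. The direct test of a change between the days did not pass for Mcm4. Of all kept genes, 22.0% separate the groups on day 14 and 16.2% on day 8.

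The 4 members in neither phase had positive changes on both days, and 0 of 4 passed. The proliferation marker Mki67 stood at 8.07, 7.92, 7.88 and 8.09 in GSK day 14 and 7.96, 7.75, 7.75 and 7.79 in DMSO day 14 libraries. On day 8 it stood at 8.24, 7.94 and 7.74 in GSK and 7.47, 7.92 and 7.69 in DMSO libraries. The groups overlapped on both days, with changes of 0.18 (SE 0.14, adjusted p = 0.434, limma) on day 14 and 0.28 (SE 0.16, adjusted p = 0.395) on day 8. Top2a, the topoisomerase that untangles chromosomes, stood at 9.17, 9.21, 9.16 and 9.44 in GSK day 14 and 9.06, 9.21, 9.07 and 8.94 in DMSO day 14 libraries, with overlap. On day 8 Top2a was at 9.29, 9.05 and 9.03 in GSK and 8.49, 9.09 and 9.18 in DMSO libraries (changes 0.18 on day 14, adjusted p = 0.482, and 0.20 on day 8, adjusted p = 0.587, limma). Hmgb2, a chromatin protein, stood at 7.14, 7.0, 7.22 and 7.47 in GSK day 14 and 6.43, 6.97, 6.72 and 6.35 in DMSO day 14 libraries. The groups were apart, and the change of 0.59 (SE 0.18, adjusted p = 0.0503, limma) missed the threshold. The microtubule regulator Stmn1 differed by 0.21. Hmgb2 and Stmn1 share 21.4% and 22.4% of their words with transcripts of other genes.

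On day 14 the 16 replication members had 7 positive and 9 negative changes with a median of -0.04, and the 20 mitosis members had 15 positive and 5 negative changes with a median of 0.14. The median over all kept genes was 0.02. The replication median was 0.08 without DMSO day 14 library 2. Mcm2 to Mcm7 with Pcna had 3 positive and 4 negative changes and a median of -0.10. The mean log2 value of these genes was 7.88 ± 0.05 in GSK and 7.84 ± 0.04 in DMSO day 14 libraries (SD, n = 4 each). Its ranges overlapped, at 7.81 to 7.93 in GSK and 7.79 to 7.89 in DMSO day 14 libraries. On day 8 the medians were 0.05 for replication (10 of 16 positive) and 0.09 for mitosis (13 of 20 positive), beside 0.02 over all genes, and the replication median was -0.06 without DMSO day 8 library 1 and -0.07 without library 3. With AY036118 libraries only, where DMSO day 8 has 1 library, both day 8 medians turned negative, at -0.11 for replication and -0.0843 for mitosis members. In the mean of both days they were 0.01 and 0.10, beside 0.03 over all genes. Groups did not overlap for 8 of 40 members on day 14 (5 higher, 3 lower), beside 22.0% of all genes, and for 7 of 40 on day 8 (2 higher, 5 lower), beside 16.2%. On day 14, the 5 higher were Cdk1, Cenpf and Kif20a of mitosis, Mcm4 of replication, and Hmgb2 of neither phase. The 3 lower were replication members (Mcm2, Cdt1 and Rrm1). This split by phase was not tested.

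The same contrast was taken within each library as the mean log2 value of the 16 replication members minus that of the 20 mitosis members. It was 0.39 ± 0.05 in GSK day 14 libraries (0.34 to 0.45) and 0.51 ± 0.03 in DMSO day 14 libraries (0.48 to 0.55; SD, n = 4 each). The groups were apart on day 14. On day 8 it was 0.44 ± 0.04 in GSK libraries (0.41 to 0.48) and 0.51 ± 0.05 in DMSO libraries (0.46 to 0.56; SD, n = 3 each), which overlapped. With the GC trend of each library removed, the day 14 ranges were 0.38 to 0.46 in GSK and 0.48 to 0.56 in DMSO libraries. With the median member in place of the mean they were 0.54 to 0.77 in GSK and 0.74 to 0.99 in DMSO libraries, which overlapped. The replication mean itself was 6.96 ± 0.05 in GSK and 6.95 ± 0.11 in DMSO day 14 libraries, and the mitosis mean was 6.58 ± 0.05 in GSK and 6.44 ± 0.10 in DMSO day 14 libraries (SD, n = 4 each). The separation was not seen in the lists of other cell cycle genes described below, which exclude the members. There the replication mean was 6.34 ± 0.03 in GSK and 6.34 ± 0.08 in DMSO day 14 libraries. The mitosis mean of those lists was 5.91 ± 0.04 in GSK and 5.90 ± 0.04 in DMSO day 14 libraries (SD, n = 4 each). All these means set libraries against each other and not genes, since the values are not per length. No p is given for them, because the members were chosen with results of these data known.

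**Figure D4:**
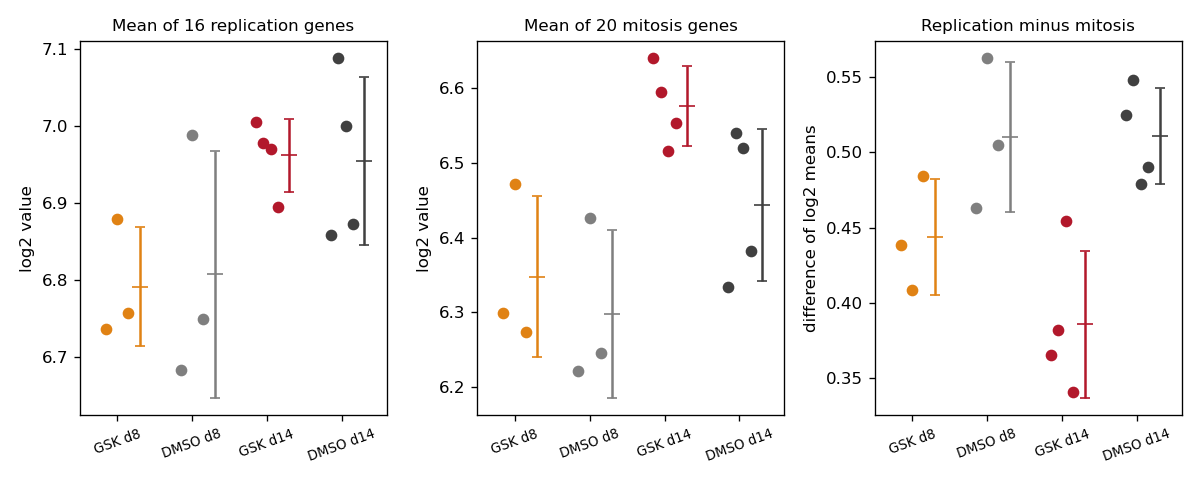
Mean log2 value of the replication members, of the mitosis members, and the difference of these means, by library and group, with bars for the mean and SD. The difference lies between 0.34 and 0.45 in GSK day 14 libraries and between 0.48 and 0.55 in DMSO day 14 libraries.

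Changes of day 14 against day 8 were positive for most members in both pre-treatments, and 1 member passed in each. In GSK tumours 32 of 40 had a positive day 14 minus day 8 change with a median of 0.15, beside 0.01 over all genes, and 12 did not overlap (11 higher, 1 lower), beside 30.3% of all genes. In DMSO tumours 28 of 40 had a positive change with a median of 0.15, beside 0.00 over all genes, and 3 did not overlap (2 higher, 1 lower), beside 10.1%. With AY036118 libraries only, where DMSO day 8 has 1 library, the DMSO medians turned negative, at -0.0364 for replication and -0.0304 for mitosis members. In GSK tumours the largest changes after Mcm4 were those of Cdk1, at 0.89 (SE 0.28, adjusted p = 0.0628, limma), and Nusap1, at 0.73 (SE 0.23, adjusted p = 0.0592). In DMSO tumours those after Prc1 were Tk1, at 0.64 (SE 0.28, adjusted p = 0.285, limma), and Bub1b, at 0.55 (SE 0.20, adjusted p = 0.216). The DMSO day 8 libraries that hold many of the lowest values, 1 and 3, are both among the libraries with Gm42418 higher, and their part in these changes was not tested beyond the fits named above. The 4T1 epithelium markers went the other way over the same days in GSK tumours, with 7 of 9 lower past the threshold (median -1.70), and 1 of 9 in DMSO tumours (median -0.60).

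Other genes of the cell cycle, taken from lists that exclude the members, also passed in both directions on day 14, with 7 that rose and 6 that fell of 111 kept, beside 10.8% of all genes. Of 38 other replication genes kept, Gmnn rose, and the single-strand DNA binding subunit Rpa1 (-0.65, SE 0.15, adjusted p = 0.0158, limma) and the clamp loader subunit Rfc5 (-0.63, SE 0.19, adjusted p = 0.0433) fell. Of 43 other mitosis genes, the condensin subunits Smc2 (0.69) and Ncapg (0.56) and the spindle protein Ckap2l (0.54) rose, while the kinetochore subunit Nuf2 (-0.64) and the condensin subunit Ncapd2 (-0.58) fell. Of 9 genes of G1 entry, the D cyclins Ccnd3 (-0.77, SE 0.17, adjusted p = 0.0120, limma) and Ccnd2 (-0.66, SE 0.18, adjusted p = 0.0312) fell and 0 rose. Of 17 transcriptional regulators of the cycle, Lin54 (0.68), the subunit of the MuvB complex that binds CHR letters, and the repressor E2f5 (0.52) rose and 0 fell. Of 4 kept genes of CDK inhibitors, Cdkn1b (0.65, SE 0.19, adjusted p = 0.0438, limma), which encodes p27, rose and 0 fell. The medians were 0.05 for other replication genes and 0.03 for other mitosis genes, beside 0.02 over all genes. On day 8, 0 genes of these 5 lists passed in limma, beside 0.194% of all genes, and 11 of 111 stood at an unadjusted p under 0.05, beside 16.3%.

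In the mean of both days 7 of the 111 rose and 7 fell, beside 14.5% of all genes. Gmnn (0.48) rose and Chaf1a (-0.51), a chromatin assembly factor, and Rpa1 (-0.37) fell among other replication genes. Among other mitosis genes Smc2 (0.59), Ncapg (0.43) and Ckap2l (0.34) rose, and the kinetochore subunits Nuf2 (-0.53) and Spc24 (-0.38) fell. E2f5 (0.49), Lin54 (0.49) and the pocket protein Rbl2 (0.40) rose, Ccnd2 (-0.50) and Ccnd3 (-0.49) fell, and 0 of 4 CDK inhibitor genes passed. Over time in GSK tumours Ckap2l (0.70) and Cdkn1b (0.72) rose and Ccnd3 fell by 0.84, beside 7.01% of all genes, and in DMSO tumours 0 genes of these lists passed in limma, with 11 of 111 at an unadjusted p under 0.05, beside 15.4% of all genes.

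Values of other markers moved with the day 14 comparison. Of 12 pan-macrophage markers 6 rose and 1 fell on day 14, where 10.8% of all genes passed, with mean log2 values of 11.29 to 11.62 in GSK and 10.69 to 11.25 in DMSO libraries. Of 13 mitochondrially encoded genes, which are also read for RNA quality, 5 rose (median 0.88), with means of 10.23 to 10.97 in GSK and 9.52 to 10.12 in DMSO libraries. Of the 9 kept 4T1 epithelium markers 0 passed on day 14 (limma, 1 at an unadjusted p under 0.05), with means of 4.96 to 5.12 in GSK and 5.19 to 5.65 in DMSO libraries. Of 8 monocyte markers 1 rose, Chil3 (1.72, SE 0.33, adjusted p = 0.00741, limma), and of 3 kept B and plasma cell markers 1 fell, the immunoglobulin gene Igkc (-0.57, SE 0.17, adjusted p = 0.0476). None of the kept endothelial (8), fibroblast (5), dendritic (5), neutrophil (4), T and NK cell (3) or erythroid (1) markers passed on day 14 in limma, where 1 endothelial and 1 fibroblast marker stood at an unadjusted p under 0.05. The part of all these markers in the differences of the members was not tested beyond the epithelium covariate.

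GC content moved with the day 14 changes. Over the 40 members the Pearson correlation between GC content of the longest transcript and the day 14 change was -0.475, and it was -0.202 on day 8, both as descriptions across genes that share the same libraries. Hmgb2, the member with the lowest GC content (38.7%), had a change of 0.59, and Cdt1, with the highest (57.8%), had a change of -0.46. Mcm4 (45.5%) and Cdk1 (47.8%) lay above the members of like GC content. The median GC content was 50.5% for replication members and 47.6% for mitosis members. Within the phases the correlation was -0.359 for replication and -0.444 for mitosis members. All kept genes showed a slope of the same sign on day 14, with median changes of 0.09, 0.04, 0.00 and -0.07 in 4 bins of rising GC content, and of 0.02, 0.02, 0.02 and 0.03 on day 8. With the GC trend of each library removed, Mcm4 was the 1 member past the threshold on day 14 (0.83, adjusted p = 0.00514, limma), and the medians were 0.00 for replication and 0.09 for mitosis members.

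**Figure D5:**
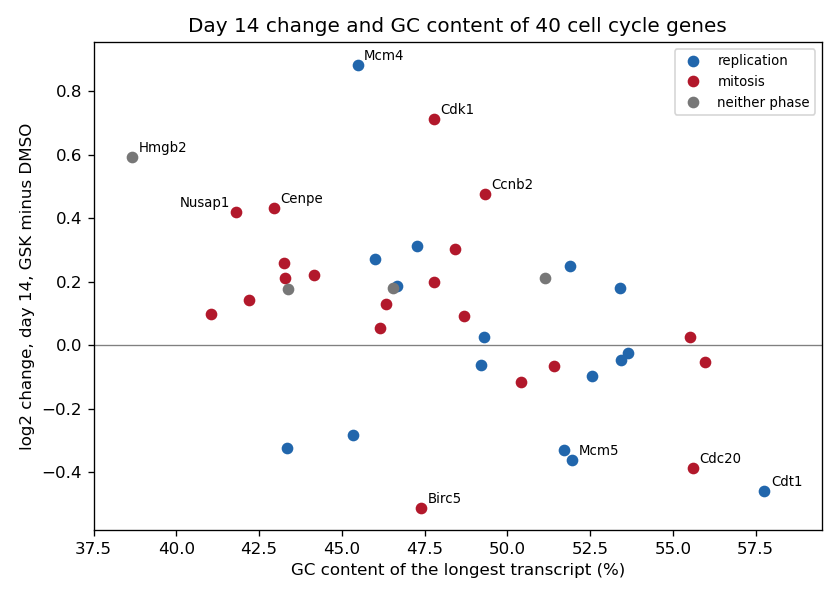
Day 14 log2 change, GSK minus DMSO, of each kept member against the GC content of its longest transcript in percent, coloured by phase. Points fall from Hmgb2 at the left to Cdt1 at the right, and Mcm4 lies highest.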

How the data were processed

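The deposited table holds log2-scale values of 24556 mouse genes in 14 libraries. Per the submitters' processing notes, RSEM 1.2.29, Bowtie2 and DESeq2 1.12.4 were used with the builds mm10 and GRCh38; their roles and the transformation behind the deposited log2 values are not given in the sources used here, nor is the depth. Symbols, coordinates, sequence sharing (31-base words) and GC content came from GENCODE M21 on GRCm38 for 24470 identifiers, and 86 did not match. Groups came from the labels. Genes at 3.32 or more in at least 3 libraries were kept. All 14 libraries entered 1 limma 3.58.1 fit (R 4.3.3) with a mean for each of 4 groups and trended empirical Bayes variances; tests were two-sided, with Benjamini-Hochberg adjustment over 11886 genes and a threshold of 0.05. The script was tested on simulated data. The members and lists were chosen with earlier results of these data known. Values by library are given for members past the threshold in any comparison and for Mki67, Top2a, Mcm2, Mcm5, Pcna, Cdk1, Ccnb1 and Plk1, with those of Gins2 and Hmgb2 chosen after their values were seen, and up to 4 genes past the threshold are named per other list. Alternatives were another filter, pseudocount, scaling, variance model, block or covariate, the ribosomal RNA split, each library left out and, chosen after seeing the data, removal of each library's GC trend. One gene of the other replication list is counted in that list but is not reported by name here.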

Additional observations from a re-analysis of the deposited data

Results flagged for a closer look

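In groups of 4 libraries, 80 were tested for a library far from the other 3, and 3 stood out; chance marks about 1 in 20 such groups. Gins2, whose exons overlap another gene, was at 5.58 in DMSO day 14 library 2, against 4.53 to 4.71 in the other DMSO day 14 libraries. Cdk1 was at 6.50 in GSK day 14 library 3, against 6.95 to 7.0 in the other GSK day 14 libraries. Bub1b was at 5.37 in DMSO day 14 library 1, against 5.99 to 6.11 in the other DMSO day 14 libraries.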

How the results depend on the processing

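With 3 or 4 libraries a group, counts of members past the threshold moved with the settings, while the called changes of Mcm4, Cdt1, Rrm1, Birc5, Prc1 and Cenpe kept their sign under every alternative. On day 14 the count was 2, and it was 1 with no filter, the epithelium covariate, the ribosomal RNA split as a term or the GC trend removed, 4 with a minimum of 50, no variance trend or AY036118 libraries only, 5 when only the compared groups were fitted and 7 with library quality weights. On day 8 the count was 0, and 1 with quality weights. In the mean it was 6, and 11 with quality weights, 2 with the split as a term and 3 with AY036118 libraries only. Over time in GSK tumours it was 1, and 9 with quality weights, 5 when only the compared groups were fitted, 0 with the epithelium covariate and 3 with AY036118 libraries only. Over time in DMSO tumours it was 1, and 0 with each of quality weights, a fit of the compared groups alone, the epithelium covariate and AY036118 libraries only. The causes were not tested.

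A median change was taken as moved when its shift reached the pooled within-group SD of the library means (0.10 for replication, 0.09 for mitosis). This held for 4 medians with 1 library left out, within the ranges given below, and for 8 medians in the other settings. Of these 8, the mitosis median was -0.0332 with quality weights in the difference between days (0.0651 in the reported fit). It was 0.32 with the epithelium covariate over time in GSK tumours. The replication median was 0.0706 with that covariate over time in DMSO tumours. With AY036118 libraries only, where DMSO day 8 has 1 library that is assumed to vary like the others, the medians were -0.11 for replication and -0.0843 for mitosis on day 8, 0.17 for replication in the difference between days, and -0.0364 for replication and -0.0304 for mitosis over time in DMSO tumours.

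Leaving out each library gave counts of 0 to 1 on day 8, 1 to 5 on day 14, 3 to 9 in the mean, 0 in the difference between days, 1 to 3 over time in GSK and 0 to 2 over time in DMSO tumours. Replication medians ran from -0.0694 to 0.12 on day 8, -0.081 to 0.0759 on day 14, -0.03 to 0.06 in the mean, -0.19 to 0.0038 in the difference, 0.06 to 0.16 over time in GSK and 0.11 to 0.23 in DMSO tumours. Mitosis medians ran from 0.07 to 0.18 on day 8, 0.11 to 0.20 on day 14, 0.07 to 0.15 in the mean, 0.03 to 0.15 in the difference, 0.15 to 0.24 over time in GSK and 0.07 to 0.17 in DMSO tumours.

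Same-numbered libraries had correlations of their deviations from -0.34 to 0.52, and differently numbered libraries from -0.52 to 0.38. The numbers were not taken as pairs in the reported fit, and these ranges cannot show whether a pairing exists. With the replicate block the median day 14 changes were -0.04 for replication and 0.14 for mitosis members, and the count of members past the threshold was 5 in place of 6 in the mean and the same in every other comparison.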
